A study of Mus musculus with 12 samples.

Results

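The Gpr genes are the receptor genes of the mouse that carry only a number after the letters Gpr, a naming used for G protein-coupled receptors, and proteins built like them, whose ligand was unknown when they were named. The genes described here are the protein-coding genes whose symbol is Gpr followed by digits alone, without Gpr34 and Gpr37. There were 68 of them, and all 68 were listed in both count tables of the series, among 21700 protein-coding genes of 32285 in the retina table and 21859 of 55401 in the pericyte table. A mean of 0.5 CPM (reads counted for a gene after scaling each library to the same size) or more in some group was reached by 51 in the retina and by 30 in the pericyte-labelled libraries. Of these, 29 reached it in both tables and 52 in some table. The retina member with the lowest mean inside this threshold was Gpr83 at 0.566 CPM, and a member just outside it was Gpr151 at 0.402 CPM. In the pericyte table these were Gpr4 at 0.515 CPM and Gpr50 at 0.328 CPM.

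The series measured RNA of wild-type (WT) mice in 12 bulk libraries, in 4 groups of 3. In the retina, both groups had an optic nerve crush (ONC), an injury to the axons of the retinal ganglion cells, and were taken on day 1. They received PBS (ONC+PBS) or small extracellular vesicles of mesenchymal stem cells marked i.o. (ONC+i.o.MSC.sEV), a mark that the labels do not spell out and that the PBS label lacks. Cultures labelled brain microvascular pericytes P4 were given PBS or MSC.sEV for 12 hours. The labels give no sex, strain or age, and no unoperated retina or untouched culture was part of these 4 groups. The retina columns carried the short names CTR and M, which were mapped to PBS and vesicles by inference, and no label says that libraries came from separate animals or cultures, so p-values measure only the spread between these libraries. Libraries are numbered by column. In bulk RNA, fewer cells of a type and less RNA per cell cannot be told apart.

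Between 15580024 and 16842926 counts were available per retina library and between 33001248 and 37954077 per pericyte-labelled library, so that 3 counts came to between 0.18 and 0.196 CPM and between 0.0778 and 0.0895 CPM. The summed level of 8 rod markers was between 96790 and 102400 CPM in the retina with PBS. Lens markers, which a retina should lack, took 0.631% of counts in PBS 1 and 7.12% in vesicle 2, the highest share of each group, 1.84% in vesicle 1 and as little as 0.0107% in vesicle 3. Of the pericyte markers, Pdgfrb was at 59.7 ± 3.48 CPM (SD, n = 3) and Acta2 at 572 ± 22.6 CPM in the PBS cultures, while Kcnj8 and Abcc9 had 8 and 0 counts over the 3 libraries. Markers of glia were present beside them, with Olig1 at 208 ± 2.69 CPM and Gfap at 215 ± 6.38 CPM, so these cultures are called pericyte-labelled.

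G protein-coupled receptors sit mostly at the cell surface and pass the binding of a ligand to G proteins, which raise or lower cyclic AMP or release calcium. Some Gpr genes have since been paired with ligands such as protons, oxysterols, fatty acids or peptides, and several of these receptors are best known from leukocytes. Others are neuronal, some belong to class C with its large outer domain, and a few stay on internal membranes such as the Golgi or lysosome. In the retina, Gpr179 is known for holding the signalling machinery of ON bipolar cells in place at their dendrite tips.

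Vesicles were compared with PBS in the crushed retina to see which of these receptors differed after treatment. Of 47 members with enough counts to be tested, 10 were higher and 3 were lower with vesicles at an edgeR quasi-likelihood adjusted p under 0.05. That is 27.7% of the tested members (21.3% higher and 6.38% lower), beside 15.9% of all 15440 genes tested (10.7% higher and 5.19% lower). The values of the PBS and vesicle libraries did not overlap in 23 tested members, or 48.9%, beside 35.7% of all genes tested, and all 13 called members were among them. The median log2 fold change was -0.07 over the tested members and -0.02 over all genes tested. The low-count filter bears on these counts: 7 members passed it in the vesicle libraries but not in every PBS library, and 6 of these 7 were called higher. With PBS 1 and vesicle 2 left out, the library of each group that was richest in lens RNA (called the lens-rich pair), 10 members were called, 8 of them from the 13.

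**Figure D1:**
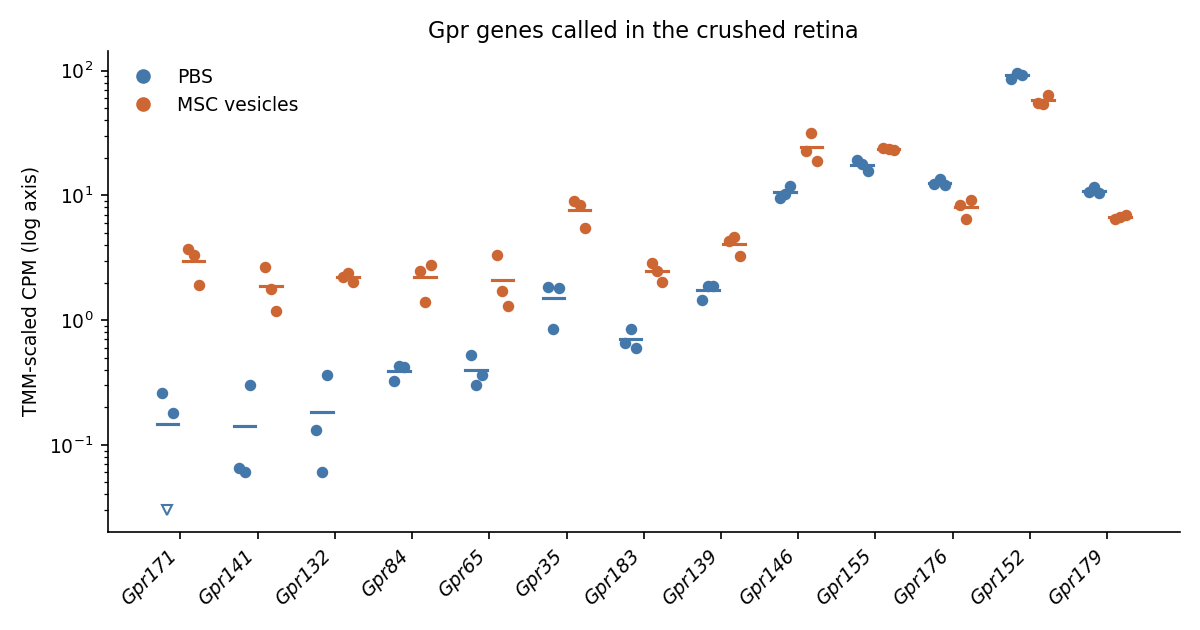
CPM of the 13 called Gpr genes in the 6 retina libraries, on a log axis, with PBS in blue, vesicles in orange and a line at each group mean. The open triangle marks a count of 0. No gene overlaps between groups. Gpr171, Gpr141 and Gpr132 lie below 0.4 CPM in every PBS library and above 1.1 CPM in every vesicle library.

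In a class made of receptors for lipids, sterols and metabolites and their relatives, 10 were listed, 6 described and 4 tested, and these 4 (Gpr35, Gpr171, Gpr84 and Gpr183) were called higher, as were 10.7% of all genes tested. Gpr171 and Gpr84 passed the low-count filter only through the vesicle libraries, where they are high. Gpr183 reached its level in 2 PBS libraries and in all 3 vesicle libraries. Which members of this class were tested, and so the share called, thus depended on the filter. Gpr35, a receptor of leukocytes and gut for which kynurenic acid is one proposed ligand, measured 1.83, 0.851 and 1.8 CPM with PBS and 9.05, 8.34 and 5.43 CPM with vesicles. Every vesicle library was thus well above every PBS library, and the log2 fold change was 2.34 ± 0.35 (SE, edgeR adjusted p = 0.00223). Gpr171, a receptor of the P2Y12-like group whose proposed ligand is a peptide, measured 0.261, 0 and 0.18 CPM with PBS and 3.7, 3.35 and 1.91 CPM with vesicles. Only 7 counts lay behind the 3 PBS libraries against 142 with vesicles, and its log2 fold change of 4.29 ± 0.64 (edgeR adjusted p = 0.00223) was the highest among the called members.

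Gpr84 is a receptor for medium-chain fatty acids on myeloid cells. It measured 0.326, 0.426 and 0.421 CPM with PBS and 2.48, 1.39 and 2.78 CPM with vesicles, a log2 fold change of 2.48 ± 0.43 (edgeR adjusted p = 0.00444). Gpr183, also called EBI2, guides immune cells along gradients of oxysterols. Its level was 0.653, 0.851 and 0.601 CPM with PBS and 2.87, 2.47 and 2.04 CPM with vesicles, and it rose by 1.80 ± 0.35 on the log2 scale (edgeR adjusted p = 0.00799). Without the lens-rich pair of libraries, the adjusted p of Gpr183 was 0.0599.

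A pair of described members of the class, Gpr18 and Gpr55, had too few counts for the filter. Gpr18, for which N-arachidonyl glycine is a proposed ligand, had a single PBS count (1) against 39 counts summed over vesicle libraries, and the levels had a ratio of 39.6 with a 95% exact counting interval from 6.7 to 1603. Gpr55, a receptor for lysophosphatidylinositol, had 1 and 29 counts, a ratio of 29.4 with an interval from 4.88 to 1202. The vesicle libraries lay above the PBS libraries in both genes, at 1.15, 0.885 and 0.432 CPM for Gpr18 and at 0.51, 0.695 and 0.617 CPM for Gpr55. In a fit without the low-count filter, Gpr18 had an edgeR adjusted p of 0.00233 and Gpr55 of 0.00816. Gpr17, a receptor of oligodendrocyte precursors, had 0 counts in all 6 retina libraries. Gpr83, a described gene of another class, also stayed below the filter and overlapped between groups, with a PBS mean of 0.313 ± 0.124 CPM and a vesicle mean of 0.566 ± 0.125 CPM.

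Of the proton-sensing receptors, which respond to acid outside the cell, Gpr132 and Gpr65 rose among 4 tested, beside 10.7% of all genes tested. Both passed the low-count filter only through the vesicle libraries, where they are high. Those same values thus decided that they were tested, although no member of this class was left out by the filter. Gpr132, linked to lysophospholipids and oxidised fatty acids, measured 0.131, 0.0608 and 0.36 CPM with PBS and 2.23, 2.4 and 2.04 CPM with vesicles. Its vesicle libraries were close to each other, and the log2 fold change was 3.53 ± 0.53 (edgeR adjusted p = 0.00223). Gpr65, or TDAG8, which raises cyclic AMP in leukocytes, measured 0.522, 0.304 and 0.36 CPM with PBS and 3.31, 1.71 and 1.3 CPM after vesicles, and it rose by 2.39 ± 0.49 on the log2 scale (edgeR adjusted p = 0.0101). Vesicle 1 held the highest value, and the adjusted p was 0.0515 without it and 0.0531 without PBS 2. Gpr4, known from endothelium, overlapped between groups. It measured 0.326, 0.669 and 0.601 CPM with PBS and 0.701, 1.2 and 0.556 CPM with vesicles (0.61 ± 0.49, edgeR adjusted p = 0.444).

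Gpr141, a receptor without a settled ligand that is known mainly from myeloid cells, measured 0.0653, 0.0608 and 0.3 CPM with PBS and 2.68, 1.77 and 1.17 CPM with vesicles. It rose by 3.63 ± 0.63 on the log2 scale (edgeR adjusted p = 0.0045), and it too passed the low-count filter only through the vesicle libraries. Gpr146, studied for its part in cholesterol handling by the liver, was more abundant, with PBS values of 9.53, 10.3 and 11.8 CPM and vesicle values of 22.6, 31.4 and 18.8 CPM (log2 fold change 1.20 ± 0.20, edgeR adjusted p = 0.0037). Gpr139, a brain receptor that responds to aromatic amino acids, measured 1.44, 1.88 and 1.86 CPM with PBS and 4.27, 4.61 and 3.27 CPM with vesicles. It rose by 1.22 ± 0.29 (edgeR adjusted p = 0.0187), with an adjusted p of 0.0588 without PBS 2, 0.0723 without vesicle 1, 0.0749 without vesicle 2 and 0.117 without the lens-rich pair. Gpr155 is a lysosomal cholesterol sensor also called LYCHOS. It was the only called member among 8 tested genes of the class listed for proteins of internal membranes, beside 15.9% called among all genes tested. Its levels were 19.1, 17.7 and 15.7 CPM with PBS and 24, 23.6 and 23.3 CPM with vesicles, a log2 fold change of 0.43 ± 0.13 (edgeR adjusted p = 0.0434). This narrow difference had an adjusted p between 0.0707 and 0.137 when PBS 2, PBS 3 or any vesicle library was left out, 0.0666 without the lens-rich pair, and 0.0596 with upper-quartile scaling.

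Markers of leukocytes were also higher with vesicles, beside 10.7% higher and 5.19% lower among all genes tested. All 12 genes of a leukocyte list (Ptprc, Itgam, Lyz2, Cd68, Itgal, Laptm5, Coro1a, Cd52, S100a8, S100a9, Ly6c2 and Ccr2) were higher with vesicles, their summed level ran from 69.6 to 107 CPM with PBS and from 954 to 1608 CPM with vesicles, and none was at 0. Of 8 microglia markers, 1 was higher and 3 were lower, with sums from 74.0 to 77.7 CPM and from 52.8 to 176 CPM. T and B cell markers had sums between 0.547 and 1.68 CPM with PBS and between 2.15 and 4.78 CPM with vesicles, too low for the filter in all 8 genes. Vesicle 3, the vesicle library with the lowest leukocyte sum, also had the lowest vesicle value of every member called higher except Gpr84, which was highest there. Vesicle 2, with the highest leukocyte sum, held the highest value of Gpr132, Gpr146 and Gpr139. Vesicle 1 held that of Gpr35, Gpr171, Gpr183, Gpr65, Gpr141 and Gpr155. With 3 vesicle libraries, such an order of values cannot show a link. The part of leukocyte RNA in these receptor levels was not tested.

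The promoters of 4 of the receptors that rose are shown, from 250 bases before to 50 after the annotated start. They are RefSeq sequences of the mouse build GRCm38.p6, printed 5′ to 3′ along the gene, and 48 of the 68 members and 14 of the 18 members called in some table had an entry. Capitals mark each match, on either strand, to GAGGAA, a core of PU.1-type ETS factors, or to TGANTCA, the AP-1 motif. TGACGTCA, the cyclic AMP response element, and TAATCC, a core of Crx and Otx factors, had no match in these 4 windows. None of the 4 motifs contains another. The windows are chr1:92978653-92978952 on the plus strand for Gpr35, chr12:98268385-98268684 on the plus strand for Gpr65, chr15:103310389-103310688 on the minus strand for Gpr84 and chr14:121965144-121965443 on the minus strand for Gpr183. Gpr35 has a further annotated start, whose window holds neither GAGGAA nor TGANTCA, and the one shown was picked because it holds matches.
Gpr35: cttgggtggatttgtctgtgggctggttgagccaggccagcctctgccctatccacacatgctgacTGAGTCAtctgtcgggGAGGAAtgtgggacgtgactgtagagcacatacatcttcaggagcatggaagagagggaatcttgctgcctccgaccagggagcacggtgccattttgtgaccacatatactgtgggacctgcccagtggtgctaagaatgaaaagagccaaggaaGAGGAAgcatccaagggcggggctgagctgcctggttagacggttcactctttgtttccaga
Gpr65: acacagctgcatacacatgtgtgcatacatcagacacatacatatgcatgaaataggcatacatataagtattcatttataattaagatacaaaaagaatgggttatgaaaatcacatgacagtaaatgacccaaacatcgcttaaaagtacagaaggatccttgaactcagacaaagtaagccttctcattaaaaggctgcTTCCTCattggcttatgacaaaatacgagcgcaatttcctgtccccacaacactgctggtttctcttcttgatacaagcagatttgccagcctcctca
Gpr84: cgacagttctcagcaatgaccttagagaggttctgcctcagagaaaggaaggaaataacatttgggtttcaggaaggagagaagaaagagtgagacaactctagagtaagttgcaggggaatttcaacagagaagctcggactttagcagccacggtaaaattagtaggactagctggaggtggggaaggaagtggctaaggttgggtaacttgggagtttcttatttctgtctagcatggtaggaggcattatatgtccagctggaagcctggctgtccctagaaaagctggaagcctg
Gpr183: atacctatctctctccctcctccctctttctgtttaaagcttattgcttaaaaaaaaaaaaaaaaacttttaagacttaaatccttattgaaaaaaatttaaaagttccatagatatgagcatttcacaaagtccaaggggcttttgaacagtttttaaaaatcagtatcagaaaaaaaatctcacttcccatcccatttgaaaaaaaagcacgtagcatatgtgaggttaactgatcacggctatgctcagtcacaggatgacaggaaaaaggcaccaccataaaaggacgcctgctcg

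Gpr35 holds GAGGAA at 168 and 12 bases before its start and TGANTCA at 184 before it. Gpr65 holds GAGGAA at 48 bases before its start on the opposite strand, while neither motif occurs in the windows of Gpr84 and Gpr183. Gpr132, Gpr141, Gpr146 and Gpr155 also rose and have promoter entries that are not shown. Of these, Gpr146 holds GAGGAA in a window and TGANTCA in another, and the others hold neither. GAGGAA occurs in 28.3% and TGANTCA in 7.81% of all 32851 promoters of the same length. Of the 64 promoters of the members, GAGGAA is in 15 and TGANTCA in 5 of them. The Crx and Otx core TAATCC occurs in 7.06% of all promoters and in 7 of the 64, and TGACGTCA in 1.79% and in 1. These matches describe letters only.

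The 3 receptors that fell in the retina were Gpr152, Gpr179 and Gpr176. Gpr152 measured 85.2, 96.2 and 92.4 CPM with PBS and 54.9, 54.1 and 64.1 CPM with vesicles. It fell by 0.66 ± 0.10 on the log2 scale (edgeR adjusted p = 0.00246). Its exons share 131 bases, or 3.33% of its exon length, with Cabp4 on the opposite strand in the GENCODE M21 annotation. Cabp4, a calcium-binding protein of photoreceptor terminals, fell from 495 ± 39.1 to 328 ± 45.9 CPM (log2 fold change -0.60 ± 0.12, edgeR adjusted p = 0.00913). The labels do not say whether reads were counted by strand, so how many of the counts listed under Gpr152 came from Cabp4 cannot be told.

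Gpr179, the class C receptor of ON bipolar cells whose loss causes night blindness, measured 10.6, 11.7 and 10.4 CPM with PBS and 6.5, 6.7 and 6.98 CPM with vesicles. It fell by 0.70 ± 0.17 (edgeR adjusted p = 0.0221). Of 12 genes listed around ON bipolar signalling, some of which photoreceptors also use, 4 fell and none rose, beside 5.19% lower among all genes tested. They were Cacna1f, a photoreceptor calcium channel, Rgs9bp, the anchor of the photoreceptor regulator Rgs9, Grm6, the glutamate receptor of ON bipolar cells, and Gnb5, the partner of Rgs7 and Rgs11. Grm6 went from 21.7 ± 3.44 to 12.1 ± 2.08 CPM (log2 fold change -0.85 ± 0.17, edgeR adjusted p = 0.00981). The median log2 fold change of the 12 was -0.35, beside -0.02 over all genes tested. Trpm1, the cation channel at the end of this pathway, overlapped between groups (0.21 ± 0.29, edgeR adjusted p = 0.68).

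Gpr176, a receptor known from the brain clock, measured 12.3, 13.4 and 12.2 CPM with PBS and 8.35, 6.51 and 9.14 CPM with vesicles, and fell by 0.66 ± 0.18 (edgeR adjusted p = 0.0352). Both calls were lost in several fits with fewer libraries, while the log2 fold changes over all alternatives ran from -0.74 to -0.64 for Gpr179 and from -0.77 to -0.53 for Gpr176. The adjusted p of Gpr179 was 0.107 without PBS 2, 0.0882 without vesicle 1, 0.0662 without vesicle 2 and 0.0798 without the lens-rich pair. That of Gpr176 lay between 0.0592 and 0.138 when any library but vesicle 3 was left out and was 0.123 without the lens-rich pair. Among bipolar cell markers, 6 of 8 fell, with sums from 452 to 585 CPM with PBS and from 363 to 406 CPM with vesicles. Of the rod markers, 5 of 8 fell, with sums from 96790 to 102400 CPM and from 66010 to 79820 CPM. Over all genes tested, 5.19% were lower. Grm6 and Trpm1 are bipolar markers here and also in the list around ON bipolar signalling, so the fall of Grm6 is counted in both. No bipolar or rod marker was at 0, and their part in the lower receptor levels was not tested. Grm6 had an adjusted p of 0.0536 without PBS 2, Gnb5 lay between 0.0753 and 0.13 without any library but vesicle 3, and Cabp4 was at 0.0582 without the lens-rich pair.

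The 34 tested members that were not called had log2 fold changes from -1.27 (Gpr1) to 1.89 (Gpr160). Gpr160 measured 1.04, 0.486 and 0.601 CPM with PBS and 1.78, 5.06 and 1.11 CPM with vesicles, so vesicle 2 alone was far above the rest (SE 0.61, edgeR adjusted p = 0.0661, with 0.0151 without vesicle 3 and 0.0271 by DESeq2). Gpr1, a chemerin receptor, measured 1.04, 1.09 and 0.781 CPM with PBS and 0.382, 0.253 and 0.556 CPM with vesicles, without overlap between groups (SE 0.46, edgeR adjusted p = 0.0933). In the chemerin and chemokine-related class, 0 of 3 tested members were called by edgeR or by DESeq2, and of these only Gpr1 had an unadjusted p under 0.05. Gpr143, the melanosome receptor that is lost in ocular albinism, measured 0.914, 1.64 and 2.82 CPM with PBS and 2.61, 5.12 and 3.21 CPM after vesicles (log2 fold change 1.02 ± 0.43, edgeR adjusted p = 0.146). Pigment epithelium and melanocyte markers varied in the same libraries, with sums of 325, 808 and 1522 CPM with PBS and 1470, 2831 and 2008 CPM with vesicles, and their part in Gpr143 was not tested.

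Neither edgeR nor DESeq2 called any of the constitutively active receptors that raise cyclic AMP (Gpr3 and Gpr12, 2 tested) or of the receptors conserved in brain (Gpr27, Gpr85 and Gpr173, 3 tested), among which only Gpr85 had an unadjusted p under 0.05. Gpr85 measured 43.7, 42.3 and 37 CPM with PBS and 34.3, 27 and 36.9 CPM with vesicles, so the groups all but touched. In all, 10 of the 34 uncalled members had an unadjusted p under 0.05: Gpr160, Gpr1, Gpr162, Gpr62, Gpr157, Gpr45, Gpr85, Gpr143, Gpr137 and Gpr135. Gpr157 measured 1.7, 1.76 and 1.62 CPM with PBS and 3.7, 3.22 and 2.1 CPM with vesicles, without overlap (log2 fold change 0.82 ± 0.32, edgeR adjusted p = 0.113). Gpr162, Gpr153 and Gpr137 were called when PBS 1, which held the lowest PBS value of each, was left out (edgeR adjusted p = 0.0209, 0.0222 and 0.0276). Gpr62, a receptor known from myelinating cells, measured 3.2, 4.86 and 4.69 CPM with PBS and 3.12, 2.21 and 2.22 CPM after vesicles (log2 fold change -0.75 ± 0.29, edgeR adjusted p = 0.113). It shares 51 exon bases with Pcbp4 on the opposite strand, which fell from 579 ± 28 to 380 ± 38.8 CPM (-0.61 ± 0.10, edgeR adjusted p = 0.00436). Its counts are uncertain for that reason.

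The 17 members not described in the retina had group means below 0.5 CPM. Gpr151, Gpr63, Gpr101, Gpr15 and Gpr174 had between 19 and 34 counts over the 6 libraries. Gpr6, Gpr50 and Gpr20 had between 6 and 11. Gpr39, Gpr82, Gpr119, Gpr25, Gpr142, Gpr33 and Gpr17 had no more than 3, so that nothing can be said of a difference in them.

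Some of the receptors with higher levels lie inside other genes. Gpr171 lies in Med12l, Gpr183 and Gpr18 lie in Ubac2, and Gpr146 lies in 3110082I17Rik, each on the opposite strand and without shared exon bases. Med12l measured 3.28 ± 1.39 and 2.96 ± 0.334 CPM in the PBS and vesicle groups (edgeR adjusted p = 0.799) and Ubac2 at 29.1 ± 0.55 and 26.9 ± 1.85 CPM (edgeR adjusted p = 0.521). Neither host gene was called. Antisense models that share 39.5% of the exon length of Gpr84 and 24.7% of that of Gpr65 had mean levels of at most 0.0218 CPM in any retina group.

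The same question was asked of the pericyte-labelled cultures after 12 hours. Of 33 tested members, 4 were higher and 4 were lower with vesicles, 24.2% of the members (12.1% in each direction) beside 19.8% of all 16975 genes tested (10.9% higher and 8.9% lower). Groups did not overlap in 13 members, or 39.4%, beside 33.8% of all genes tested, and all 8 called members were among them. The median log2 fold change was -0.05 over the tested members and 0.00 over all genes tested. These shares lie near those of all genes. Here 3 members passed the low-count filter in the vesicle libraries but not in every PBS library (Gpr84, Gpr3 and Gpr4) and 2 the other way round (Gpr12 and Gpr182), and of these Gpr84 and Gpr12 were called. With upper-quartile scaling, 44.3% of all called genes were higher in place of 55.1%, and 3 members were called higher and 5 lower. Without PBS 1 or without PBS 2, 5 members were called, all of them among the 8.

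**Figure D2:**
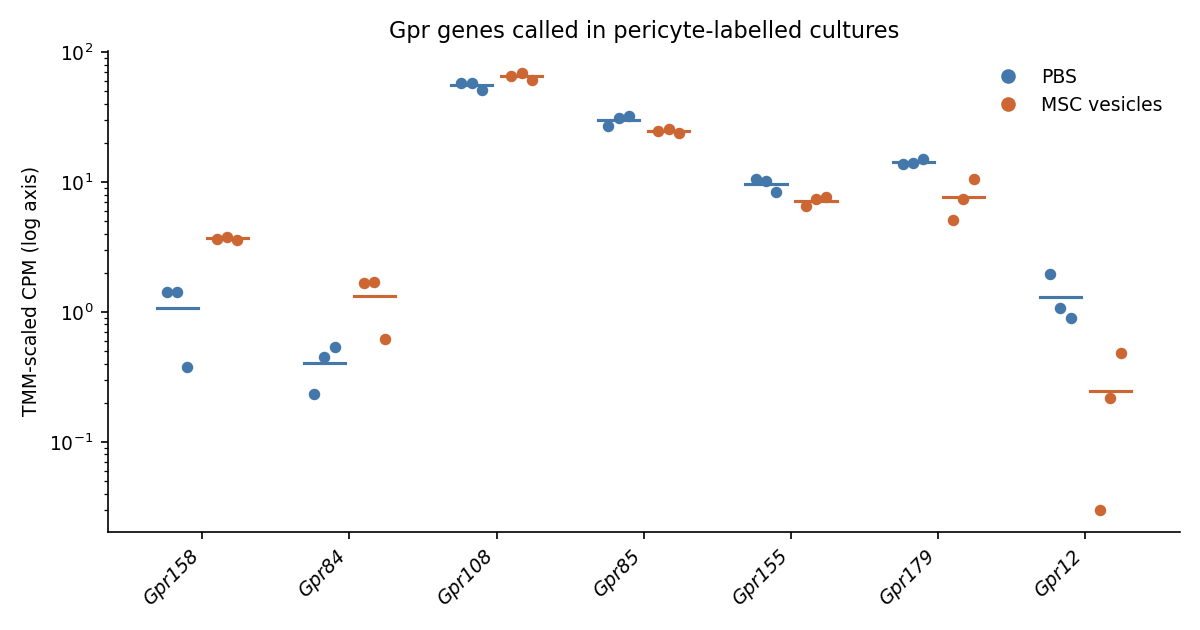
CPM of 7 of the 8 called Gpr genes in the 6 pericyte-labelled libraries, on a log axis, with PBS in blue, vesicles in orange and a line at each group mean. Of those drawn, Gpr158 and Gpr84 show the widest gaps upward and Gpr12 downward, while Gpr108, Gpr85 and Gpr155 differ by less than 0.5 on the log2 scale.

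Gpr158, a class C receptor that binds glycine and recruits Rgs7, measured 1.43, 1.43 and 0.378 CPM with PBS and 3.67, 3.8 and 3.55 CPM with vesicles. PBS 3 lay well below its group, the vesicle libraries were close together, and the gene rose by 1.77 ± 0.33 (edgeR adjusted p = 0.00049). Gpr84 measured 0.233, 0.446 and 0.54 CPM with PBS and 1.67, 1.7 and 0.619 CPM with vesicles, so vesicle 3 lay just above the PBS libraries. Its log2 fold change was 1.70 ± 0.50 (edgeR adjusted p = 0.0184), with an adjusted p of 0.0737 without PBS 1, 0.0666 without vesicle 1 and 0.101 without vesicle 2.

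Gpr108, a Golgi protein, was abundant and shifted little, from 57.5, 58.3 and 51.5 CPM with PBS to 65.3, 69.5 and 60.5 CPM with vesicles. It rose by 0.22 ± 0.07 (edgeR adjusted p = 0.0297), and its adjusted p was 0.0758 with upper-quartile scaling, 0.0532 without PBS 2, 0.207 without PBS 3 and 0.15 without vesicle 2. None of the other 6 tested genes of the internal-membrane class rose. Among them, Gpr107, Gpr180 and Gpr89 were nearly level, with log2 fold changes of 0.03 ± 0.05, 0.00 ± 0.07 and -0.01 ± 0.09.

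Of the 4 members that fell, Gpr179 was again one. It measured 13.7, 14.1 and 15 CPM with PBS and 5.13, 7.44 and 10.5 CPM with vesicles, which are spread widely but all below the PBS libraries (log2 fold change -0.88 ± 0.17, edgeR adjusted p = 0.00077). Defining genes of ON bipolar cells were nearly absent here, with Grm6 at 0 counts in all 6 libraries and Trpm1 at no more than 0.311 CPM. Of 8 tested genes of the list around ON bipolar signalling, Gnao1 fell and none rose, beside 8.9% lower among all genes tested. Gpr12, a constitutively active receptor that raises cyclic AMP, measured 1.97, 1.07 and 0.891 CPM with PBS and 0.0298, 0.219 and 0.485 CPM with vesicles. Its PBS counts were 76, 36 and 33 and its vesicle counts 1, 8 and 18, and it fell by 2.39 ± 0.61 (edgeR adjusted p = 0.00701, and 0.0698 without PBS 1).

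Gpr85, a receptor conserved in brain and also called SREB2, measured 27, 31.2 and 32.1 CPM with PBS and 24.9, 25.7 and 23.9 CPM with vesicles. It fell by 0.28 ± 0.09 (edgeR adjusted p = 0.0271), with adjusted p of 0.117, 0.163 and 0.0924 without PBS 2, PBS 3 and vesicle 3. Gpr155 measured 10.6, 10.1 and 8.34 CPM with PBS and 6.59, 7.33 and 7.67 CPM with vesicles, and fell by 0.43 ± 0.14 (edgeR adjusted p = 0.0301). The adjusted p of Gpr155 lay between 0.0603 and 0.139 without PBS 1, PBS 2, vesicle 1 or vesicle 2. Gpr55 measured 2.05, 1.87 and 1.3 CPM with PBS and 1.49, 0.684 and 0.512 CPM with vesicles, a difference of -0.96 ± 0.39 that was not called (edgeR adjusted p = 0.096) but was without vesicle 1 (0.0075). It shares 71 exon bases with 4933407L21Rik on the opposite strand, which fell from 10.5 ± 0.664 to 5.34 ± 1.07 CPM (-0.97 ± 0.15, edgeR adjusted p = 5.3e-05), so the counts listed under Gpr55 are uncertain.

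Several receptors that rose in the retina were at or near the floor in these cultures. Gpr171 had 0 counts in all 6 libraries, as did Gpr6, Gpr22, Gpr33, Gpr101 and Gpr149, and 0 counts over a group of 3 libraries allow up to 0.0275 CPM with PBS and 0.028 CPM with vesicles. Gpr183 had 5 counts in all with PBS and 0 with vesicles, Gpr141 had 2 and 0, and Gpr139 had 0 and 1. Gpr35 had 10 and 8 counts, Gpr65 5 and 6, and Gpr132 0 and 9, the last of these at most 0.0829 CPM as a group mean. These genes were too low to be tested, as were most of the 38 members not described here. Leukocyte markers summed to between 83.3 and 87.1 CPM with PBS and between 88.6 and 138 CPM with vesicles. Of the 8 leukocyte markers tested, 2 rose, while Ccr2 and S100a9 were at 0 in all libraries. Of 8 tested mural markers, 2 rose and 2 fell, with sums between 672 and 715 CPM and between 703 and 717 CPM. Oligodendrocyte-lineage markers, of which 1 rose and 5 fell among 9 tested, summed to between 559 and 581 CPM with PBS and between 422 and 478 CPM with vesicles. Over all genes tested in the cultures, 10.9% were higher and 8.9% lower. The part of these cell types in the receptor values was not tested.

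Both tables tested 29 members, and 3 were called in both. The tables were counted against different gene lists, so each comparison's values are given side by side and no difference between them was tested. Gpr84 was higher in both (log2 fold changes of 2.48 ± 0.43 in the retina and 1.70 ± 0.50 in the cultures), and Gpr179 was lower in both (-0.70 ± 0.17 and -0.88 ± 0.17). Gpr155 was higher in the retina and lower in the cultures (0.43 ± 0.13 and -0.43 ± 0.14). The sign of the log2 fold change was shared by 18 of the 29. In single tables, 15.9% of all genes tested were called in the retina and 19.8% in the cultures. Shares of all genes called in both, or with the same sign in both, were not worked out. These counts of members are therefore not read as agreement between the tables. Gpr158 and Gpr12, which were called in the cultures, measured -0.09 ± 0.18 and -0.07 ± 0.36 in the retina and overlapped between groups there. Of the 13 retina calls, 8 could not be tested in the cultures.

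**Figure D3:**
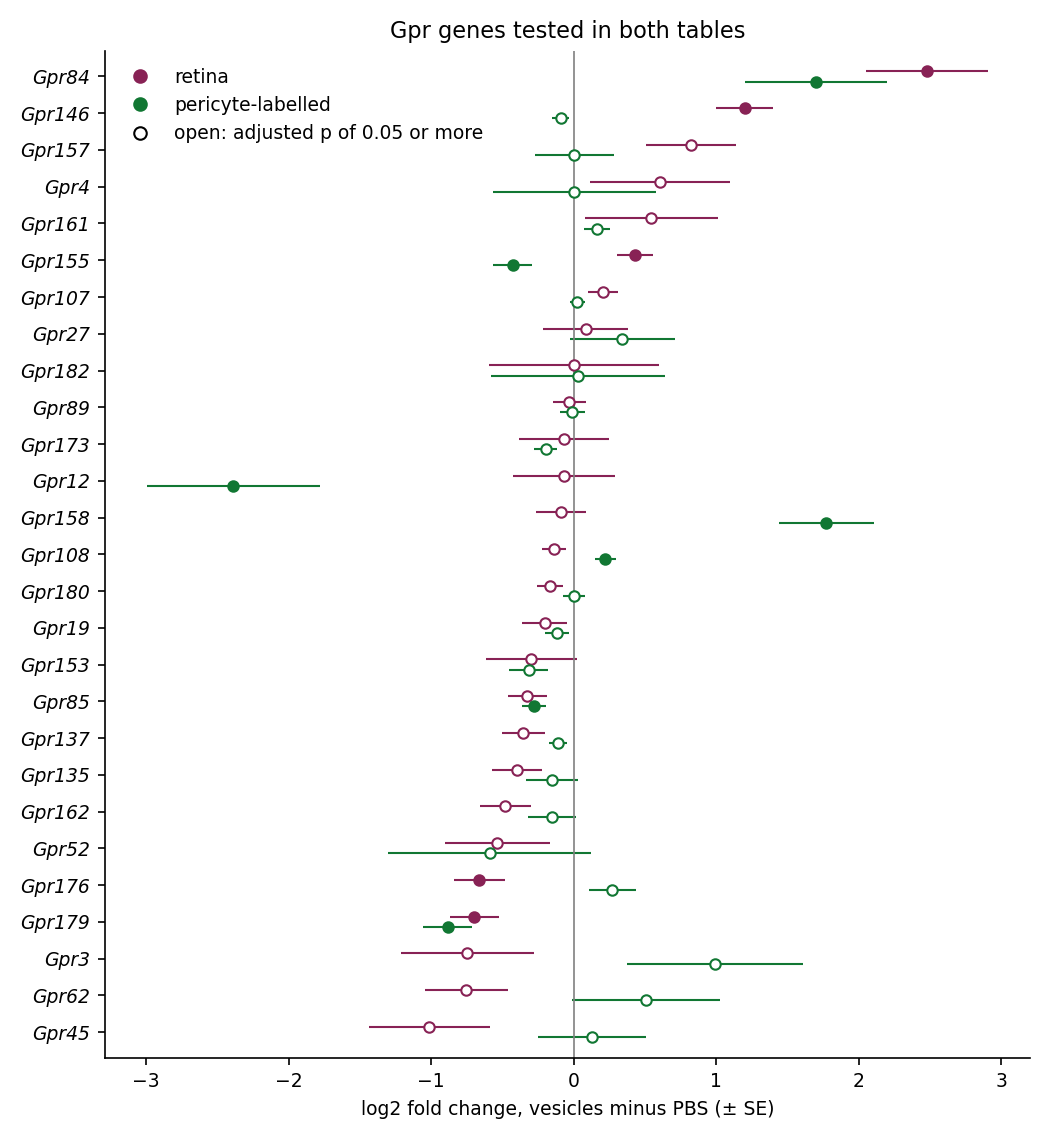
Log2 fold change, vesicles against PBS, with its SE for 27 of the 29 Gpr genes tested in both tables, retina in purple and pericyte-labelled cultures in green. Filled points have an adjusted p under 0.05. Gpr84 lies to the right and Gpr179 to the left in both, and Gpr155 is filled on both sides of 0.

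Levels can be compared between genes only per length, here as CPM per kb of merged exons in GENCODE M21, in which 67 of the 68 members were matched by gene identifier. With PBS, the member with the highest level per kb in the retina was Gpr180, a protein linked to TGF-beta signalling, at 70.1 ± 3.61. Gpr108 at 26.0 ± 0.683 and Gpr152 at 23.2 ± 1.42 came next. Gpr152 shares 131 exon bases with the more abundant Cabp4 on the opposite strand, so its level and place are uncertain. Gpr22 (13.3 ± 1.53), Gpr162 (12.3 ± 2.71), Gpr137 (10.6 ± 2.03), Gpr85 and Gpr89 followed, neighbours that do not differ beyond their spread. In the cultures the order was Gpr137, a lysosomal protein, at 28.2 ± 0.541, then Gpr108 at 19.5 ± 1.3 and Gpr180 at 18.0 ± 0.685, which lie within their spread, then Gpr19 at 13.7 ± 0.257, Gpr146 at 13.0 ± 0.458 and Gpr107, a Golgi protein, at 11.5 ± 0.122 CPM per kb.

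**Figure D4:**
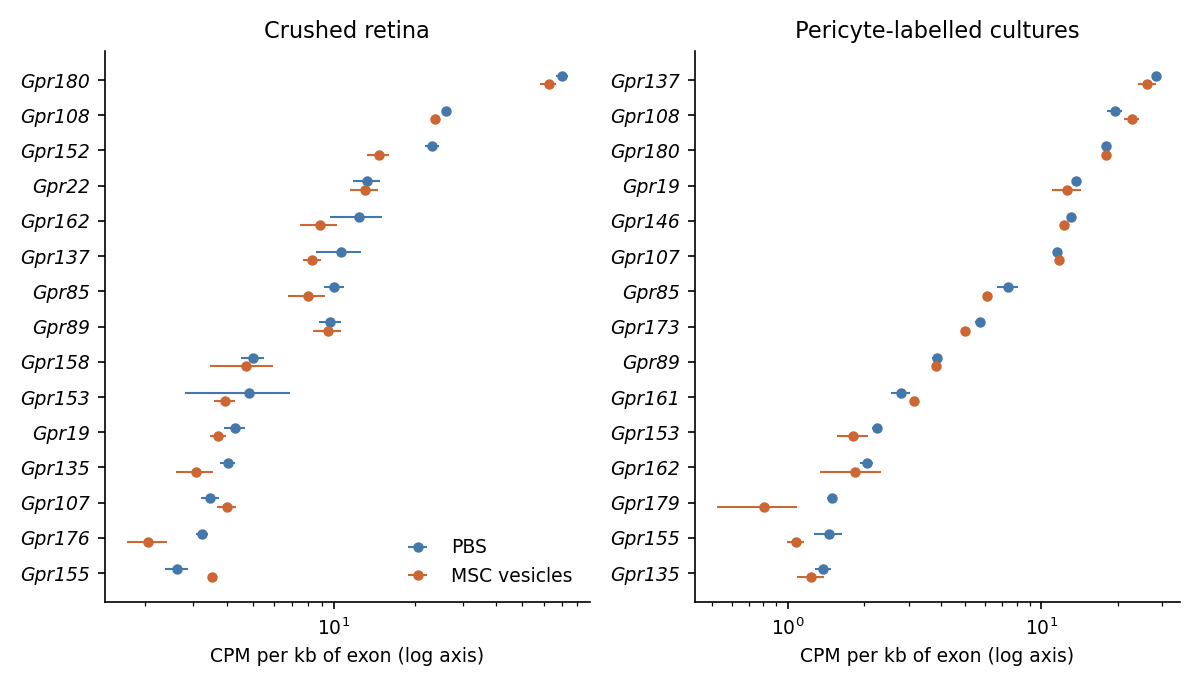
Mean CPM per kb of exon (log axis), with SD over 3 libraries, for the Gpr genes with the highest levels in the retina (left) and the pericyte-labelled cultures (right), PBS in blue and vesicles in orange. Gpr180 leads in the retina and Gpr137 in the cultures, and Gpr152 and Gpr176 in the retina and Gpr179 in the cultures show gaps between groups.

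By library, Gpr180 measured 139, 126 and 130 CPM with PBS and 120, 108 and 124 CPM with vesicles in the retina, without overlap but not called (edgeR adjusted p = 0.267). Gpr108 likewise measured 76.6, 73.7 and 72.9 CPM with PBS and 68.7, 68.3 and 66.2 CPM with vesicles (edgeR adjusted p = 0.304). Gpr22, which is at 0 in the cultures, measured 69.3, 56.4 and 57.9 CPM with PBS and 57.1, 54.9 and 68 CPM with vesicles. In the cultures Gpr137 measured 96.7, 93.6 and 96.9 CPM with PBS and 87.5, 96.6 and 82.7 CPM with vesicles, and Gpr146, which rose in the retina, measured 85, 91 and 89.3 CPM and 81.2, 83.7 and 84 CPM, without overlap but not called (edgeR adjusted p = 0.331). Gpr137 shares 524 exon bases, or 15.4% of its exon length, with Bad on the opposite strand, which was at 59.3 CPM in the PBS cultures, so its level and its place in the order are uncertain.

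None of the retina members that rose most is in this top group: the PBS means of Gpr171, Gpr141 and Gpr132 were between 0.142 and 0.184 CPM. The median spread between libraries was wider in the retina. It covers 51 described members there and 30 in the cultures, and the retina libraries held fewer counts. The medians are therefore not like for like. The median coefficient of variation of the described members was 19.4% with PBS and 22.0% with vesicles in the retina, and 8.6% and 13.5% in the cultures.

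Gpr183 answers to 7alpha,25-dihydroxycholesterol, which Ch25h and Cyp7b1 make and Hsd3b7 breaks down, and these genes belong to a list of 18 ligand and ligand-making genes of the receptors. In the retina, Ch25h measured 0.261, 0.669 and 0.481 CPM with PBS and 8.15, 14.4 and 6.36 CPM with vesicles, and it rose by 4.33 ± 0.44 on the log2 scale (edgeR adjusted p = 0.00032). Cyp7b1 (0.54 ± 0.19, edgeR adjusted p = 0.0898) and Hsd3b7 (0.59 ± 0.19, edgeR adjusted p = 0.06, and 0.04997 without vesicle 3) were not called, although neither overlapped between groups. In the cultures, where Gpr183 was at the floor and Hsd3b7 at 0 counts, Ch25h rose from 1.61, 1.99 and 1.27 to 6.09, 4.13 and 4.25 CPM (1.57 ± 0.24, edgeR adjusted p = 4.3e-05). Cyp7b1 rose there from 4.31, 2.26 and 2.89 to 17.2, 15.4 and 13.2 CPM (2.26 ± 0.18, edgeR adjusted p = 4.7e-09). Cyp27a1, a sterol hydroxylase, fell in both tables, by 0.77 ± 0.22 in the retina (edgeR adjusted p = 0.0388) and by 0.67 ± 0.15 in the cultures (edgeR adjusted p = 0.00207). In the retina the Cyp27a1 call was lost without PBS 2 or any vesicle library (adjusted p from 0.0598 to 0.183).

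**Figure D5:**
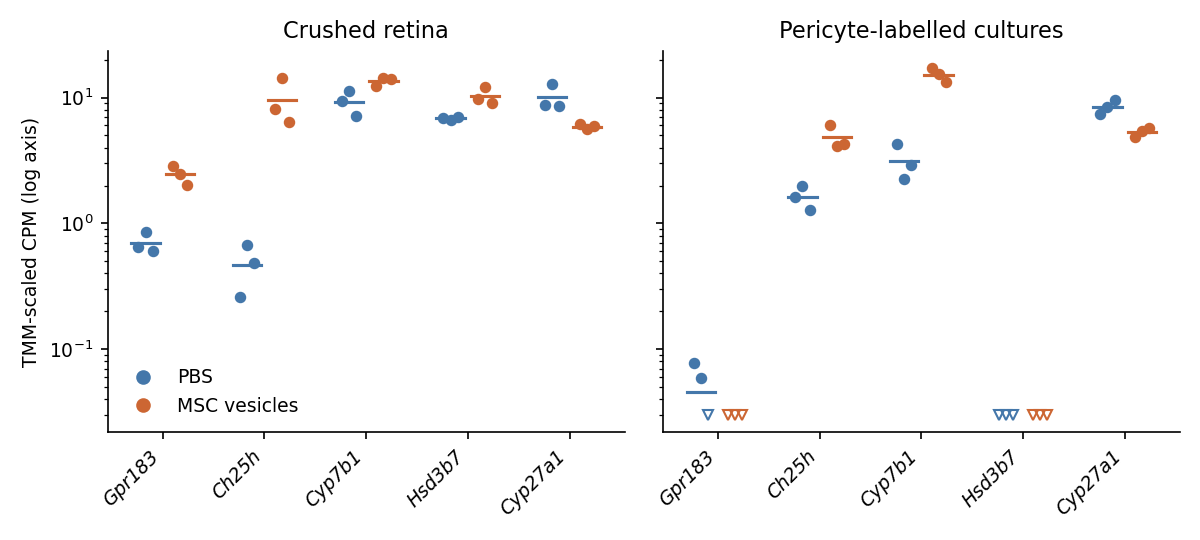
CPM of Gpr183 and of Ch25h, Cyp7b1, Hsd3b7 and Cyp27a1 in each library (log axis), retina on the left and pericyte-labelled cultures on the right, PBS in blue and vesicles in orange, with a line at each group mean. Open triangles mark counts of 0. Ch25h is higher with vesicles in both panels, and Gpr183 is measured above 0.5 CPM only in the retina.

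Over the whole list, 2 genes rose and 3 fell of 16 tested in the retina, beside 15.9% of all genes called there, and 4 rose and 4 fell of 13 tested in the cultures, beside 19.8%. The others called in the retina were Alox5, the 5-lipoxygenase of leukocytes, which rose (1.87 ± 0.44, edgeR adjusted p = 0.0188), Faah, which degrades fatty acid amides, and Pcsk1n, the precursor of a peptide proposed for Gpr171, which fell (-0.68 ± 0.15 and -0.65 ± 0.18). Each of these 3 lost its call in some fits with 1 library left out, with adjusted p between 0.0549 and 0.0929 for Alox5 without any library but PBS 1 and vesicle 3, up to 0.0688 for Faah without PBS 2, vesicle 1 or vesicle 2, and up to 0.146 for Pcsk1n without any library but PBS 1. In the cultures Kyat3 and Abhd16a also rose, and Faah, Napepld and Gpc4 fell with Cyp27a1.

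Of 58 genes for G proteins, cyclic AMP and receptor desensitisation, 8 rose and 4 fell among 55 tested in the retina, beside 10.7% higher and 5.19% lower among all genes tested. The 6 with the lowest p were Crem, Rgs14, Gnb1, Adcy6, Gna14 and Gnas. Crem, a cyclic AMP-responsive transcription factor, went from 32.5 ± 4.23 to 65.5 ± 2.6 CPM (1.01 ± 0.11, edgeR adjusted p = 0.00054). Rgs14, a regulator of G proteins, rose by 3.45 ± 0.50 and Gna14, a G protein subunit, by 1.28 ± 0.23. Gnb1, the G protein subunit of rods, went from 7524 ± 144 to 4728 ± 554 CPM (-0.67 ± 0.11, edgeR adjusted p = 0.00289), and Adcy6, which makes cyclic AMP, and Gnas, the stimulatory G protein, fell by 0.71 ± 0.12 and 0.95 ± 0.17. In the cultures 12 rose and 7 fell among 53, beside 10.9% higher and 8.9% lower among all genes tested, and the 6 with the lowest p were Pde4b, Rgs16, Grk5, Rgs4, Grk2 and Rgs3. Pde4b, which breaks down cyclic AMP, went from 16.4 ± 1.87 to 79.1 ± 4.37 CPM (2.27 ± 0.08, edgeR adjusted p = 1.1e-14), and Rgs16, which switches off G proteins, from 48.6 ± 4.58 to 158 ± 6.39 CPM (1.70 ± 0.07, edgeR adjusted p = 5.5e-14). The receptor kinases Grk5 and Grk2 rose by 0.96 ± 0.09 and 0.52 ± 0.06 and Rgs4 by 1.38 ± 0.14, while Rgs3, of the same family as Rgs4, fell by 0.71 ± 0.09. The median log2 fold change of the list was 0.03 in the retina and 0.02 in the cultures, and calls went in both directions.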

How the data were processed

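Raw counts per gene were deposited by the authors in 2 tables, 1 for the 6 retina libraries and 1 for the 6 pericyte-labelled libraries. Per the submitters' processing notes, the tools named were FastQC 0.11.8, HISAT2 2.0.5, featureCounts 1.5.0-p3 and limma, without version. Genome build, annotation and strand setting are not given in the sources used here, so counts of genes that overlap, or have near-identical copies, are uncertain. No sample column was left out (0 unused).

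Each table was fitted alone, over all its genes, in R 4.3.3 with edgeR 4.0.16: filterByExpr with a minimum count of 10, TMM scaling, the robust quasi-likelihood F test with 4 residual degrees of freedom, 2-sided, and Benjamini-Hochberg adjustment over all tested genes, with a call at an adjusted p under 0.05. CPM used TMM-scaled totals, and the SE was taken as the size of the estimate over the root of F. The test was also run on simulated counts, with an outcome not reported here. The genes changed in it had higher mean counts than Gpr132 and Gpr141 in the retina, so it does not cover members that low. With 3 libraries on each side, the smallest p of an exact 2-sided permutation test is 0.1. Floors (3 counts) and 95% intervals cover counting error only. Libraries of a group differed by a chi-squared per degree of freedom of at least 11.2 in the retina and 6.12 in the cultures, so no 2 libraries were copies.

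Alternatives were DESeq2 1.42.0, other scalings and filters, the fit without robust shrinkage, leaving out each library and the replicate number as a block. Leaving out the lens-rich retina pair and the block by retina column number were chosen after seeing the data. Some members are included in the counts but not reported here by name. The genes, classes and lists were chosen with earlier results of these data known. By the rule for named genes, called members that are reported are given by library, then members of their classes, then the 5 members with the highest level per kb, and up to 6 called genes of a list in order of p. Trpm1, host and overlapping genes and members singled out for 1 library were added after their values were seen. Gene lengths, overlaps and neighbours come from GENCODE M21, and promoters from RefSeq. The retina table held the gene classes of its annotation only, so levels were not compared between tables.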

Additional observations from a re-analysis of the deposited data

Results flagged for a closer look

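Of the 29 members described in both tables, 4 had every vesicle library on 1 side of every PBS library in the retina and on the opposite side in the cultures. The difference between the tables was not tested. Groups did not overlap, in either direction, in 35.7% of all genes tested in the retina and 33.8% in the pericyte-labelled cultures. The share of all genes that lay on opposite sides in the tables was not worked out, so 4 cannot be called many or few. Gpr155 had log2 fold changes of 0.43 in the retina and -0.43 in the cultures. Gpr146 had 1.20 and -0.092, Gpr176 had -0.66 and 0.27, and Gpr108 had -0.14 and 0.22. Gpr155 was called in both tables, Gpr146 and Gpr176 only in the retina and Gpr108 only in the cultures. The Gpr155 call was lost in 9 of 14 alternative fits in the retina and in 4 of 13 in the cultures. With 3 libraries a group, no library was tested as an outlier.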

How the results depend on the processing

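The number of retina members called was 13, and it ran from 9 to 17 when 1 library was left out, with 14 by DESeq2, 12 with upper-quartile scaling, 15 without the low-count filter and 10 without the lens-rich pair. In the cultures it was 8, ran from 5 to 7 with 1 library left out, and stayed at 8 under each other alternative. Over all genes, 2449 were called in the retina, and 1328 without PBS 2, 1401 without vesicle 1, 1381 without vesicle 2 and 1420 without the lens-rich pair. Upper-quartile scaling put 58.8% of all called retina genes higher in place of 67.3%. Gpr35, Gpr171, Gpr132, Gpr152, Gpr146, Gpr84 and Gpr141 in the retina and Gpr158 and Gpr179 in the cultures were called under every alternative run. The called retina members kept their call in 153 of 182 fits and those of the cultures in 89 of 104, and none reversed. Values near 0 that were not called changed sign: with 1 library left out, the retina log2 fold changes ran from -0.32 to 0.13 for Gpr12, from -0.33 to 0.032 for Gpr158, and from -0.39 to 0.23 for Med12l. Without the lens-rich pair, Gpr158 was at 0.061 and Gpr4 at -0.0032 in the retina. With the replicate number of the cultures as a block, 8 members were called (4 higher and 4 lower), the same 8. The labels do not say whether equal numbers mark a pair. Deviations of same-numbered libraries correlated at 0.0085, 0.04 and -0.022, and not every library correlated best with its own number. With 3 libraries a group, such correlations cannot settle whether libraries were paired. In the retina only the column names carry numbers, which the labels tie to no sample. With these as a replicate block, a fit chosen after seeing the data, 9 members were called (8 higher and 1 lower), all among the 13, and 1919 genes in all. Same-numbered libraries there correlated at 0.23, -0.21 and -0.015, which likewise cannot settle whether they were paired. At a mean of 1 CPM, 43 members would be described in the retina and 26 in the cultures. The cause of the lost calls was not tested. Retina members with PBS means under 0.2 CPM, such as Gpr132, Gpr171 and Gpr141, rest on 0 to 6 counts in a PBS library, which limits their fold changes.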
